A study of Mus musculus with 11 samples.

Results

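Retinoid handling in the ileum is described here through 8 genes, RBP2, LRAT, BCMO1 (now Bco1), ALDH1A1, ALDH1A2, ALDH1A3, RARA and RXRA as the array spells them, in SKG mice set against BALBc mice. They were chosen by name for their roles in vitamin A metabolism, with earlier results of these data known. All probes carrying these names were taken: 9 of the 25697 probes on the array, since Aldh1a2 has a pair. SKG mice are BALB/c animals whose Zap70, the kinase that relays the T cell receptor's signal, carries a point mutation, and BALBc mice are their controls without it. All were naive and 8 to 12 weeks old, and total RNA came from the terminal ileum, with 1 Illumina MouseRef-8 array per mouse. The values are from SKG replicates 4 to 8 (n = 5) and BALBc replicates 1 to 3 (n = 3).

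Vitamin A enters the enterocyte, the absorptive cell of the gut lining, as retinol or as carotenoids that are cleaved to retinal. Inside the cell retinol and retinal are carried by RBP2, and most retinol is esterified by LRAT and leaves in chylomicrons. A small share is oxidised through retinal to retinoic acid, which binds RAR and RXR nuclear receptors and is known in the gut for directing lymphocyte homing and for effects on epithelium and dendritic cells.

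The arrays of the study came in 3 batches by their labels. All 5 SKG arrays used here and BALBc replicate 3 were in batch 3, and BALBc replicates 1 and 2 were batch 2, so the strains met in batch 3 only. The 3 SKG arrays of batch 1 were left out because their rows are out of step with the probe list, and rank correlations with the other 8 were 0.0768 to 0.0966, against 0.838 to 0.947 among those 8. On the 8 arrays 12445 to 14076 probes were above background at a detection p under 0.05, and median raw signals were 98.5 to 105.6 in batch 3 and 163.0 and 187.5 in batch 2. SKG replicate 6 stood apart, with a root mean squared log2 difference of 0.675 to 0.746 from the other SKG arrays, which lay within 0.399 of their nearest neighbour. Of the 5 ileum markers 4 were measured, with Fabp6 at 13.51 ± 0.10 in SKG (SD, n = 5) and 12.95 ± 0.52 in BALBc (SD, n = 3) on the normalised log2 scale, which is the signal after background correction and quantile normalisation between arrays. Slc10a2, a defining transporter of the terminal ileum, was not above background on enough arrays to be tested. Of the 5 markers of proximal small intestine, Gata4, Pdx1 and Cybrd1 were likewise too dim and Lct had no probe. Slc40a1, the iron exporter, was measured at 11.73 ± 0.53 in SKG (SD, n = 5), against 11.02 ± 0.31 in BALBc (SD, n = 3), a difference of 0.89 (limma adjusted p = 0.35).

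The regions just before the starts of Rbp2 and Bco1 are shown because both hold the half-site AGGTCA, the letters that RAR and RXR dimers are known to bind, within the same longer stretch. RefSeq windows (build GRCm38.p6) were matched for 8 of 9 genes looked for, the 8 members and Rdh7, in 14 windows. Aldh1a3 had no entry. The 250 bases before each start were searched on both strands. AGGTCA was found in windows of Rbp2, Bco1, Rxra and Rdh7, and in 14.0% of all 32851 windows. The longest stretch around it that Rbp2 and Bco1 share, GTCAAAGGTCA, was taken from these sequences and so had to be in both. It was in no other window of the set and in 0.0304% of all windows. Capitals mark it below, where it reads on the plus strand as TGACCTTTGAC, at bases 58 to 48 before the start of Rbp2 and 56 to 46 before that of Bco1. The Rbp2 stretch is chr9:98490287-98490536 and the Bco1 stretch chr8:117095615-117095864, both on the plus strand.
Rbp2: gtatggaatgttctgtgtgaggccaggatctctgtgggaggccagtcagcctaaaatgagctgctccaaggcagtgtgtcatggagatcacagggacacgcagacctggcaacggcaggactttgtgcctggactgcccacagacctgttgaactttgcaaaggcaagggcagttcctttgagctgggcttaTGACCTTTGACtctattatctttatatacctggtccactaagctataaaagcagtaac
Bco1: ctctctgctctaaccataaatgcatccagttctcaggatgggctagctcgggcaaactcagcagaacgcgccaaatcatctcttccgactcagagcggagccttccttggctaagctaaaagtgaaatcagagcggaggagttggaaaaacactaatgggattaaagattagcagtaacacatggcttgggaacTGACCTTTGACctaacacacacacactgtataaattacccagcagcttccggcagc
In Bco1 the letters run on into a direct repeat of the half-site with 1 base between (AGGTCANAGGTCA), found in 0.0335% of windows and in no other gene of the set. These matches describe letters only, and no binding was measured.

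Rbp2, the retinol carrier of enterocytes, was higher in all 5 SKG mice than in all 3 BALBc mice, but the difference did not pass the test, a linear model over all probes (limma) with Benjamini-Hochberg adjusted p-values and a threshold of 0.05. Its normalised log2 signals were 11.80, 11.93, 11.44, 11.97 and 11.68 in SKG replicates 4 to 8, against 8.79, 8.23 and 10.85 in BALBc replicates 1 to 3. The groups did not overlap, and the BALBc mouse of batch 3 lay nearer to the SKG mice than the other two did. The means were 11.77 ± 0.21 in SKG (SD, n = 5) and 9.29 ± 1.38 in BALBc (SD, n = 3). With batch as a random block the fitted difference was 1.52 (SE 0.44, 95% interval 0.55 to 2.48), a 2.86-fold higher signal in SKG, with a limma adjusted p of 0.167 over all 13775 probes tested. Within batch 3 it was 0.92 (limma adjusted p = 0.232), resting on 1 BALBc mouse, while the BALBc mice differed by 2.34 between batch 3 and batch 2. Strain and batch therefore could be separated only as far as BALBc replicate 3 allows. Without that mouse, where strain and batch coincide and no batch term could be fitted, the difference was 3.26 and passed (limma adjusted p = 1.56e-05). In that setting 5141 probes passed over the whole array, against 79 with batch as a random block. Calls without that mouse below carry this limit. With no batch term and all 8 arrays the Rbp2 difference was 2.48 and passed too (limma adjusted p = 0.0253), among 701 probes.

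For Rbp2 the groups were also apart in the scanner values before any normalisation, which was not so for Rxra, Rdh7 and Bco2 below. Raw Rbp2 signals were 1702.5 to 3418 in SKG and 734.2 to 1213.8 in BALBc, each the mean of 26 to 55 beads with a bead standard error of 2.84 to 4.90% of the signal. In the authors' deposited table the Rbp2 log2 values were 10.30, 10.73, 9.05, 10.99 and 10.33 in SKG replicates 4 to 8, against 10.05, 9.76 and 5.29 in BALBc replicates 1 to 3. There the groups overlapped, because SKG replicate 6 lay below both BALBc arrays of batch 2, and BALBc replicate 3 was the lowest of all. No source used here gives its centring, so batches in that table are not comparable. Later fits of the table carry this limit.

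**Figure D1:**
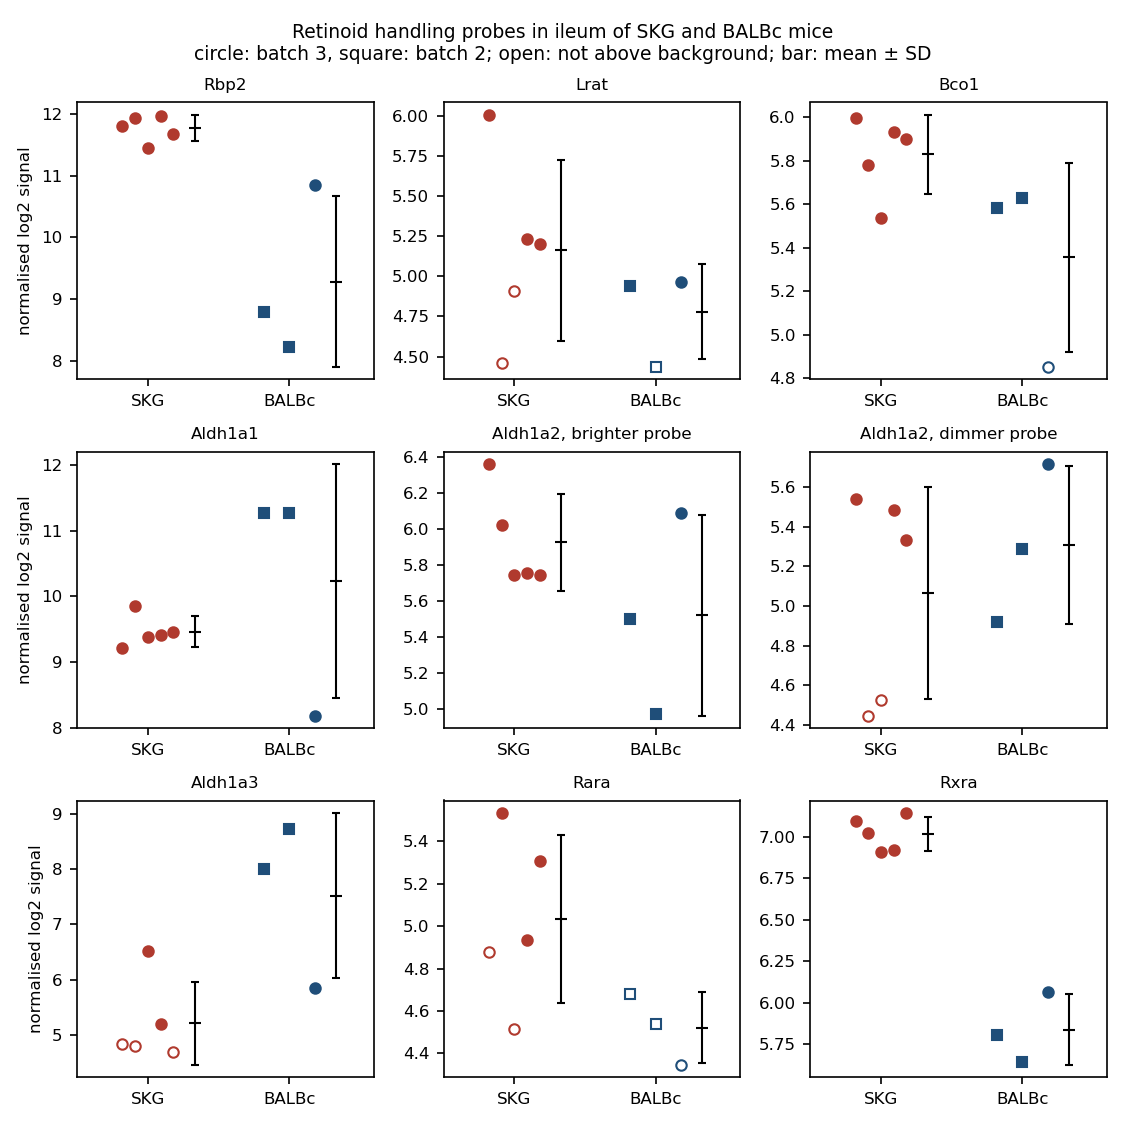
Normalised log2 signal of the 9 probes of the 8 genes, one panel per probe with its own axis. Each point is 1 mouse, SKG left and BALBc right, circles for batch 3 and squares for batch 2, open where the probe was not above background, with bars for mean and SD. Rbp2 and Rxra are the panels in which all SKG points lie above all BALBc points. For Aldh1a1 and Aldh1a3 the batch 2 squares lie far above the batch 3 circle of the same strain.

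None of the 9 member probes passed this limma threshold, against 79 of 13775 probes on the array (0.574%), of which 44 were higher and 35 lower in SKG. At an unadjusted limma p under 0.05 there were 3 member probes, Rbp2, Bco1 and Rxra, all higher in SKG, against 13.3% of all probes in either direction. With the brightest probe per gene, 7 of the 8 genes had a positive difference, beside 7030 of all 13775 probes. The median of the 8 was 0.55 (0.80 within batch 3) beside 0.01 over all probes tested. Aldh1a1 and the brighter Aldh1a2 probe are among the 7 and changed sign between settings, as given below. The dimmer Aldh1a2 probe, not counted here, differed by −0.49. All SKG values lay above all BALBc values for 2 member probes, Rbp2 and Rxra, and for 10% of all probes. For no member did all SKG values lie below all BALBc values, which held for 5.25% of all probes. In batch 3 alone the 5 SKG values lay above the BALBc value for 5 of the 9 probes (22% of all probes) and below it for 1, the dimmer Aldh1a2 probe (21.3% of all probes). All 9 probes passed the filter on dim signals, a detection p under 0.05 on at least 3 of the 8 arrays, and Rara did so through SKG arrays alone.

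Whether Rbp2 moved apart from other genes of its cell type was examined by subtracting the mean of 10 enterocyte markers, among them the brush border protein villin (Vil1) and the glucose transporter Slc5a1. The remainder was −0.10, −0.17, −0.43, 0.01 and −0.26 in SKG replicates 4 to 8, against −3.94, −4.39 and −0.61 in BALBc replicates 1 to 3. All SKG values were above all BALBc values, by a narrow margin for BALBc replicate 3 and a wide one for the batch 2 mice. The difference in means was 2.79 (exact permutation p = 0.0179, two-sided, the smallest that 5 against 3 arrays allow), with −0.19 ± 0.17 in SKG (SD, n = 5) and −2.98 ± 2.06 in BALBc (SD, n = 3). This permutation exchanges arrays across batches and so does not separate strain from batch. As a member, Rbp2 was chosen with earlier results of these data known, which the permutation p does not take into account. Within batch 3 the difference was 0.42. The enterocyte mean itself was 11.95 ± 0.09 in SKG (SD, n = 5) and 12.27 ± 0.70 in BALBc (SD, n = 3). In such bulk tissue, fewer cells of a type and less RNA per cell cannot be told apart.

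**Figure D2:**
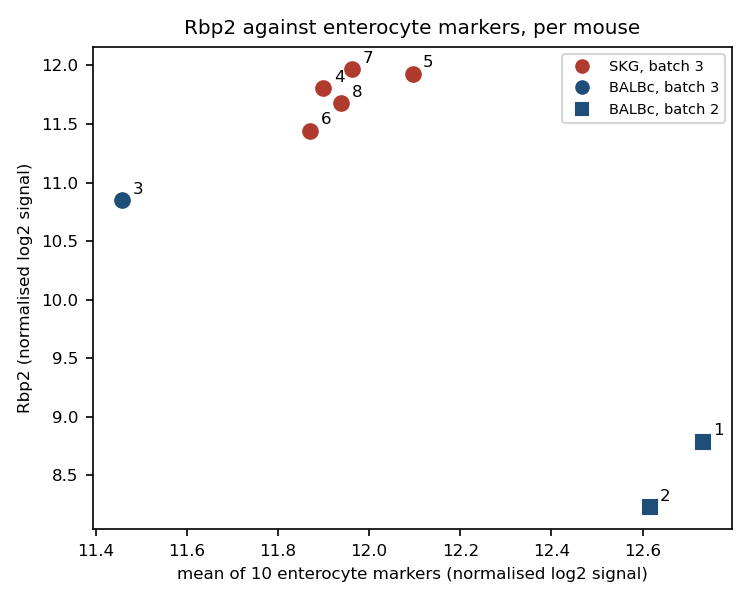
Normalised log2 signal of Rbp2 against the mean of 10 enterocyte markers, 1 point per mouse with its replicate number, SKG in red and BALBc in blue, circles for batch 3 and squares for batch 2. The batch 3 mice lie close together at the upper left, with BALBc replicate 3 lowest among them on both axes. The batch 2 BALBc mice have the highest enterocyte means (12.73 and 12.62) and the lowest Rbp2 values (8.79 and 8.23).

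Other cell types differed beside these results. All 7 tested T cell markers were lower by sign in SKG, none past the threshold, with a summed linear signal of 376 to 826 in SKG and 974 to 2378 in BALBc. The same held for 7 of 7 macrophage and dendritic cell markers (730 to 1044 in SKG and 1242 to 1744 in BALBc) and for 6 of 6 fibroblast markers (4303 to 6397 in SKG and 8366 to 15908 in BALBc), and all 5 smooth muscle markers were also lower by sign (8622 to 14244 in SKG and 12335 to 20580 in BALBc). So were 4 of 4 endothelial markers (205 to 293 in SKG and 294 to 372 in BALBc), 3 of 3 B cell markers (278 to 953 in SKG and 182 to 963 in BALBc), 3 of 3 stem cell markers (342 to 809 in SKG and 553 to 1686 in BALBc) and 2 of 2 goblet cell markers (4881 to 6515 in SKG and 6330 to 8300 in BALBc), none past the threshold. The 10 tested enterocyte markers were all higher by sign, none past the threshold (57129 to 65799 in SKG and 52583 to 77904 in BALBc). Cd8a, Fabp2, Itgam, Flt3, Zbtb46 and Cd209a among the defining markers were not above background on enough arrays. The part of cell composition in the results for Rbp2 and the other genes was not tested.

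Lrat, the enzyme that esterifies the retinol RBP2 carries, gave a dim signal with no detectable strain difference. Its log2 signals were 6.00, 4.46, 4.91, 5.23 and 5.20 in SKG, against 4.94, 4.44 and 4.96 in BALBc. The groups overlapped, and the probe was above background on 3 of 5 SKG and 2 of 3 BALBc arrays. The difference was 0.27 (SE 0.40, 95% interval −0.62 to 1.16, limma adjusted p = 0.823), an interval that spans a doubling as well as a fall.

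Bco1 cleaves beta-carotene to retinal and so opens the other route into the pool that RBP2 binds. Its signals were 6.00, 5.78, 5.54, 5.93 and 5.90 in SKG, against 5.58, 5.63 and 4.85 in BALBc. SKG replicate 6 fell below the batch 2 BALBc arrays, and BALBc replicate 3, which was not above background, was the lowest. The difference was 0.78 (SE 0.26) and missed the threshold (limma adjusted p = 0.216), and within batch 3 it was 0.98. Without SKG replicate 6, a setting in which 754 probes passed, it was 0.98 and passed too (limma adjusted p = 0.0319). It was 0.23 without BALBc replicate 3 and 0.19 without background correction, and passed in neither.

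The Aldh1a genes encode the retinal dehydrogenases, which make retinoic acid. Aldh1a1, known from the intestinal epithelium, changed sign with the treatment of batch. Its signals were 9.21, 9.86, 9.39, 9.42 and 9.46 in SKG, against 11.26, 11.26 and 8.19 in BALBc, so the SKG mice lay between the BALBc mice of the different batches. The fitted difference was 0.49 (SE 0.52, limma adjusted p = 0.738), with 1.28 within batch 3, −0.77 with no batch term and −1.79 without BALBc replicate 3, which passed (limma adjusted p = 1.75e-04). Between the BALBc mice, batch 3 was lower than batch 2 by −3.07 on the log2 scale, the widest such gap among the members.

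Aldh1a3 was dim in SKG and in batch 3. Its signals were 4.84, 4.80, 6.51, 5.20 and 4.70 in SKG, against 7.99, 8.72 and 5.85 in BALBc, and it was above background on 2 of 5 SKG and 3 of 3 BALBc arrays. SKG replicate 6 lay above BALBc replicate 3, so the groups overlapped. The difference of −1.28 (SE 0.63, limma adjusted p = 0.413) did not pass, and it was −0.63 within batch 3. Without BALBc replicate 3 it was −3.18 and passed (limma adjusted p = 6.95e-04).

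Aldh1a2, the form known from dendritic and stromal cells of the gut, was measured by 2 probes that did not share a sign. The brighter gave 6.36, 6.02, 5.75, 5.75 and 5.74 in SKG, against 5.50, 4.97 and 6.09 in BALBc (difference 0.06, SE 0.31, limma adjusted p = 0.962). The dimmer gave 5.54, 4.44, 4.53, 5.48 and 5.33 in SKG, against 4.92, 5.29 and 5.72 in BALBc (difference −0.49, SE 0.39, limma adjusted p = 0.645). In both, BALBc replicate 3 was the highest BALBc mouse, and within batch 3 the differences were −0.16 and −0.65. Without BALBc replicate 3 the brighter probe differed by 0.71 and passed (limma adjusted p = 0.0449), and the dimmer differed by −0.041.

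Rxra, the retinoid X receptor that pairs with RARs and with many other nuclear receptors, had the smallest p-value of the members. Its signals were 7.10, 7.02, 6.91, 6.92 and 7.14 in SKG, against 5.80, 5.64 and 6.07 in BALBc. The groups did not overlap, and BALBc replicate 3 lay near the batch 2 mice, 0.34 above them. The difference was 1.04 (SE 0.22, 95% interval 0.56 to 1.53), a 2.06-fold higher signal in SKG, and missed the threshold (limma adjusted p = 0.0757). Within batch 3 it was 0.95, close to the pooled value. It passed without SKG replicate 6 (1.04, limma adjusted p = 0.0214) and without BALBc replicate 3 (1.31, limma adjusted p = 3.84e-04). Over all probes those settings gave 754 and 5141 calls. Without background correction the difference was 0.42, less than the fitted value by over 1.5 times. Raw Rxra signals were 131.6 to 173.9 in SKG, against 258.1, 217.1 and 125.1 in BALBc replicates 1 to 3. Before normalisation the groups therefore overlapped.

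Rara, a retinoic acid receptor, was at the limit of detection. Its signals were 4.88, 5.53, 4.52, 4.94 and 5.31 in SKG, against 4.68, 4.54 and 4.35 in BALBc, and it was above background on 3 of 5 SKG arrays and on none of the BALBc arrays. The SKG mean of Rara was 1.19 times the lowest signals above background on the BALBc arrays. That mean includes SKG replicates 4 and 6, where Rara was not above background, so the ratio is not a lower bound. Because Rara passed the filter through SKG arrays alone, which favours a higher SKG value, this ratio is a description only. The fitted difference, 0.62 with an SE of 0.31, missed the threshold (limma adjusted p = 0.425).

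**Figure D3:**
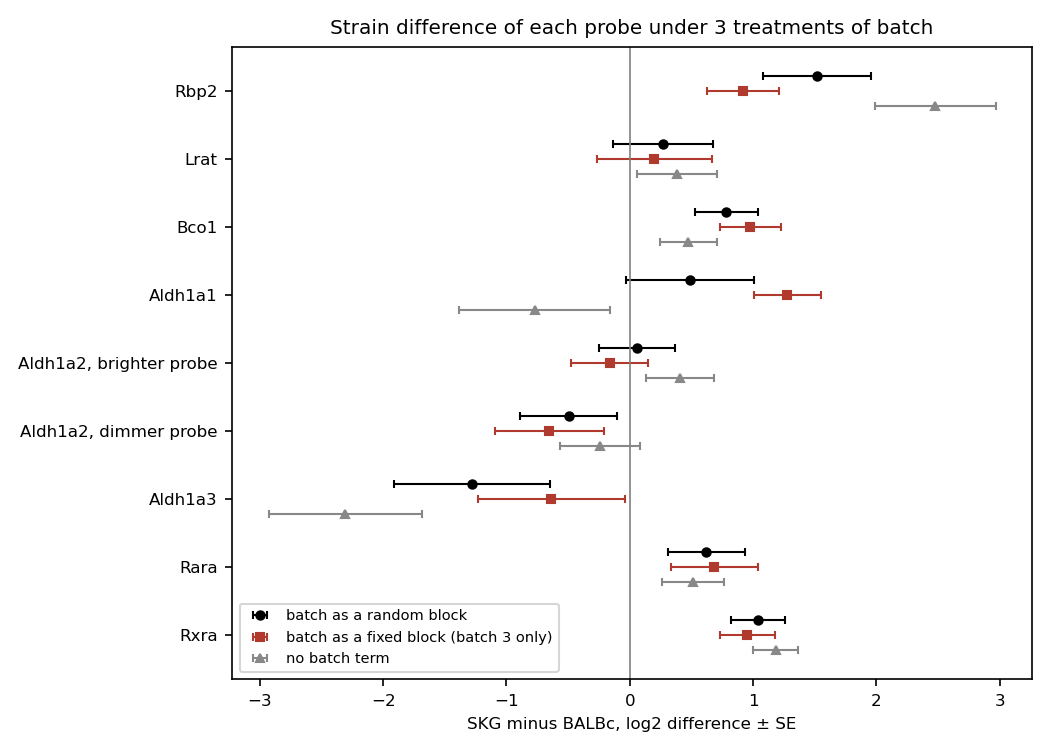
Log2 difference of SKG minus BALBc with its standard error for each member probe, with batch as a random block (black circles), as a fixed block, which equals batch 3 alone (red squares), and with no batch term (grey triangles). Rxra lies between 0.95 and 1.18 and Rara between 0.51 and 0.69 under the 3 fits. Rbp2 stays positive but runs from 0.92 to 2.48, and Aldh1a1 runs from −0.77 to 1.28.

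The other genes of the pathway were taken from a list of 66 genes, of which 62 had a probe and 46 were tested. Of these, 1 was higher past the threshold (0.319% of all probes were) and 0 were lower (0.254% of all probes). At an unadjusted limma p under 0.05, 9 were higher and 4 lower, against 13.3% of all probes in either direction. By sign 27 were higher and 19 lower, with a median of 0.25 (0.23 within batch 3). All SKG values lay above all BALBc values for 11 of the 46 (10% of all probes) and below for 3 (5.25% of all probes). Adh4, Ppara and Aldh8a1, 3 of the 46, passed the filter on dim signals through SKG arrays alone, which favours higher SKG values. All 3 were higher by sign, and Adh4 and Ppara are among the 11. By role, 12 of 15 retinol and retinal oxidoreductases were higher by sign (median 0.47), as were 9 of 11 RXR partners and corepressors (median 0.40). The 3 further receptors tested, Rarb, Rarg and Rxrb, were lower by sign (median −0.23). So were the 5 tested of 8 listed genes known to be induced by retinoic acid (median −0.61), none past the threshold, with Cdx1 at −0.14. Of the others on that list, Ccr9 and Itga4 were not above background on enough arrays, and Rarres1 had no probe. Whether retinoic acid signalling differed was not tested.

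The gene that passed was Rdh7, a member of the short-chain dehydrogenase family that interconverts retinol and retinal. Its brighter probe gave 9.62, 8.97, 8.67, 9.60 and 9.36 in SKG, against 8.44, 7.65 and 6.74 in BALBc, and the difference was 2.17 (SE 0.41, limma adjusted p = 0.0468). The dimmer probe gave 9.09, 8.43, 7.79, 8.93 and 8.61 in SKG, against 6.47, 5.73 and 6.25 in BALBc, and the difference was 2.36 (SE 0.39, limma adjusted p = 0.029). In neither probe did the groups overlap, and within batch 3 the differences were 2.50 and 2.32. Neither passed there (limma adjusted p = 0.0622 and 0.114), and with batch as a fixed block the dimmer did not (limma adjusted p = 0.0596). Without background correction the differences were 1.48 and 1.34, and in a fit of the authors' deposited table the brighter probe differed by 0.95, none past the threshold. The calls were close to the threshold: the brighter probe passed in 7 of 17 alternative settings and the dimmer in 8 of 16. Neither passed without SKG replicate 4 (2.06 and 2.22), 5 (2.21 and 2.39), 7 (2.06 and 2.26) or 8 (2.13 and 2.34), nor without BALBc replicate 2 (2.14 and 2.29). Without BALBc replicate 3 the brighter probe still passed, with a difference of 1.20. Raw signals of the brighter probe were 260.4 to 685.1 in SKG, against 938.7, 539.5 and 149.7 in BALBc, so they overlapped. Those of the dimmer probe overlapped too. The related genes Rdh1, Rdh9 and Rdh16 lie in the same run of neighbouring genes as Rdh7 in the RefSeq gene table, and whether a probe also takes up their transcripts was not tested. Rdh1 itself was lower by sign (−0.57, limma adjusted p = 0.345).

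**Figure D4:**
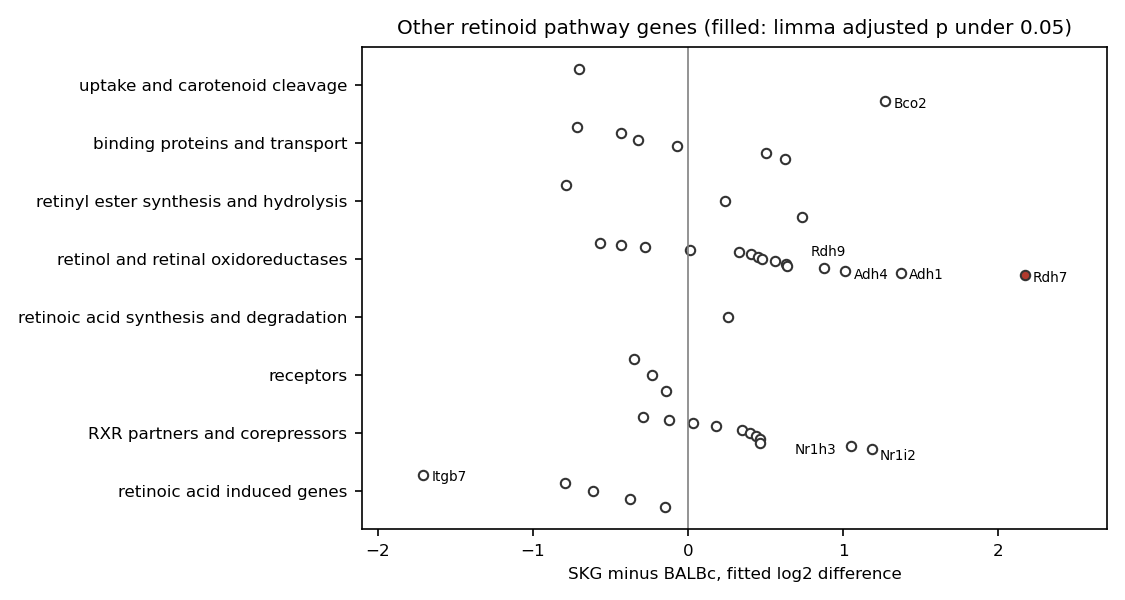
Fitted log2 difference of SKG minus BALBc for the 46 tested genes of the wider retinoid pathway, grouped by role, 1 point per gene. Rdh7 at 2.17 is the filled point, the only gene past the limma threshold. The 5 tested genes induced by retinoic acid lie left of 0, none past the threshold, with Itgb7 at −1.71 the farthest.

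Among the genes of the list that did not pass, those with the smallest p-values mostly leaned toward SKG. Bco2, which cleaves carotenoids off centre, had 7.29, 7.96, 8.12, 7.75 and 7.87 in SKG, against 6.70, 6.59 and 6.49 in BALBc (difference 1.27, SE 0.28, limma adjusted p = 0.0786). Adh1, an alcohol dehydrogenase that oxidises retinol, had 8.99, 8.59, 8.91, 8.87 and 8.34 in SKG, against 6.03, 6.36 and 7.77 in BALBc (difference 1.37, SE 0.35, limma adjusted p = 0.125). For both the normalised groups did not overlap, and within batch 3 the differences were 1.31 and 0.97. Raw Bco2 signals were 162.1 to 237.6 in SKG, against 376.9, 323.9 and 138.7 in BALBc, so they overlapped. Raw Adh1 signals did not, at 297.1 to 426.3 in SKG and 219.3 to 292.3 in BALBc. Adh1 passed without BALBc replicate 3 (2.55), and Bco2 passed without it (1.16) and without SKG replicate 6 (1.21). Adh4, of the same family as Adh1, was above background on 4 SKG arrays and on no BALBc array. It passed the filter on dim signals through SKG arrays alone, which favours a higher SKG value. The SKG mean of Adh4 was 1.59 times the lowest signals above background on the BALBc arrays, which therefore only describes these arrays. That mean includes SKG replicate 6, where Adh4 was not above background, so the ratio is not a lower bound. The fitted Adh4 difference was 1.01 (SE 0.35) and missed the threshold (limma adjusted p = 0.239).

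Rdh9 ran from 9.83 to 10.57 in SKG and from 9.22 to 9.59 in BALBc (difference 0.87, limma adjusted p = 0.198). The brighter probe of the hormone-sensitive lipase Lipe, which can hydrolyse retinyl esters, ran from 5.86 to 6.66 in SKG and from 5.42 to 5.66 in BALBc (difference 0.74, limma adjusted p = 0.303). The dimmer Lipe probe overlapped between the groups (difference 0.20, limma adjusted p = 0.878). It was above background on 3 SKG arrays and 1 BALBc array. Values for Lipe below are of the brighter probe. Of the receptors that pair with RXR, the pregnane X receptor Nr1i2 differed by 1.18 (limma adjusted p = 0.133) and overlapped between the groups. The liver X receptor Nr1h3 differed by 1.05 (limma adjusted p = 0.226) and did not overlap. In the other direction, Itgb7, the integrin chain of gut-homing lymphocytes, differed by −1.71 (limma adjusted p = 0.165), beside the lower T cell marker sums given above. It ran from 6.40 to 7.99 in SKG and from 7.41 to 9.16 in BALBc, so the groups overlapped. Without SKG replicate 6, a setting in which 754 probes passed, these genes did: Itgb7 at −2.11, Nr1i2 at 1.25 and Rdh9 at 0.97. Adh4 passed there too (1.26), but replicate 6 is the SKG array on which Adh4 was not above background. Without BALBc replicate 3, a setting in which 5141 probes passed, Nr1h3 (2.19), Rdh9 (0.69), Adh4 (1.09) and Lipe (0.88) did. There Itgb7 shrank to −0.52 and Nr1i2 to 0.22. Nr1i2 passed with batch as a fixed block (1.52) and with 75th percentile scaling (1.42). Itgb7 passed in a fit of the authors' deposited table (−1.19), whose batches are not comparable. Without background correction Adh4 differed by 0.24 and Lipe by 0.24.

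**Figure D5:**
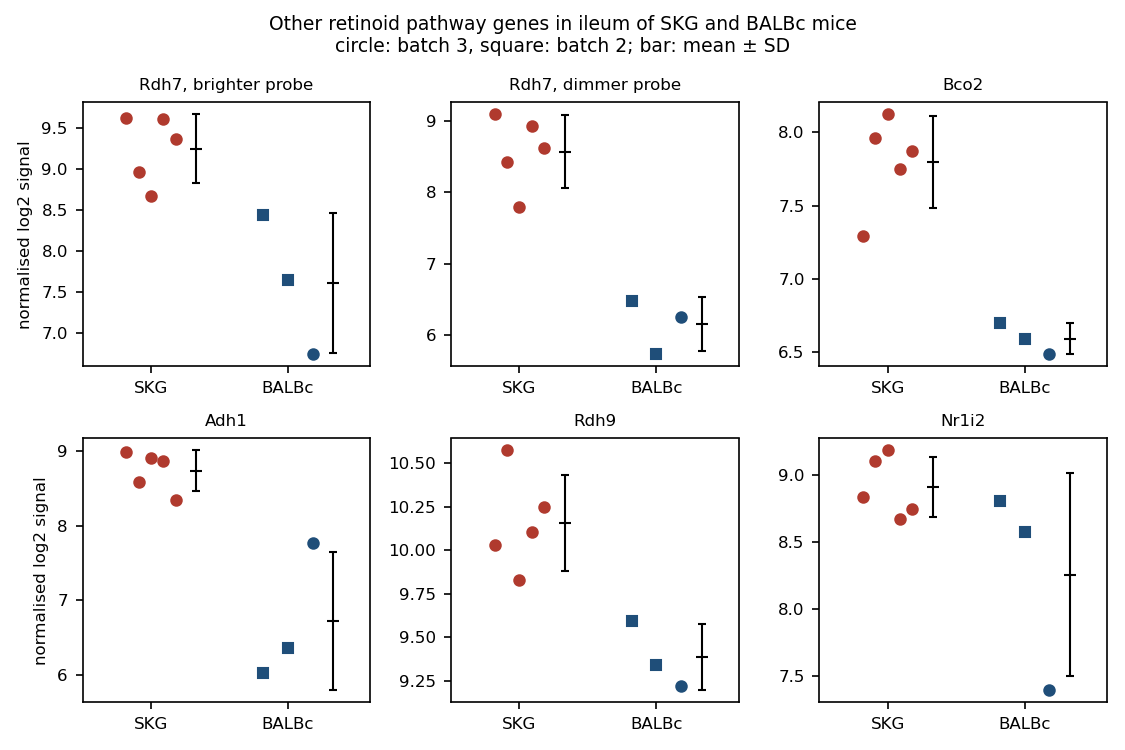
Normalised log2 signal of both Rdh7 probes, Bco2, Adh1, Rdh9 and Nr1i2, one panel per probe with its own axis. Each point is 1 mouse, SKG left and BALBc right, circles for batch 3 and squares for batch 2, with bars for mean and SD. In all panels but Nr1i2 the SKG points lie above every BALBc point.

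The probes whose pattern over the 8 mice was nearest to that of Rbp2 were found by the root mean squared difference of values centred on each probe's mean, among 10390 probes detected on all 8 arrays. They were Arpc1b, a subunit of the Arp2/3 actin complex (0.227), Sgpl1, the sphingosine-1-phosphate lyase (0.266), Zfp768 (0.327), Asah2, the neutral ceramidase (0.332), and Rassf1 (0.433). Arpc1b ran from 10.55 to 11.22 in SKG and had 8.24, 7.53 and 10.42 in BALBc replicates 1 to 3. Asah2 ran from 9.82 to 9.99 in SKG and had 6.99, 7.04 and 8.55 in BALBc. They were picked for their likeness to Rbp2, so these values are a description. Asah2 alone of the 5 passed (difference 1.74, SE 0.31, limma adjusted p = 0.0393), but it did not without SKG replicate 4 (1.76), 5 (1.76), 7 (1.71) or 8 (1.75), nor without BALBc replicate 1 or 2 (1.78 each). It also missed the threshold within batch 3 (1.35, limma adjusted p = 0.0985), without a filter on dim probes (2.02, limma adjusted p = 0.0531) and in a fit of the authors' deposited table (5.23, limma adjusted p = 0.198). Without BALBc replicate 3 its difference was 2.89, and Arpc1b (3.02), Sgpl1 (2.94), Zfp768 (2.76) and Rassf1 (2.39) passed then. Without SKG replicate 6 Zfp768 (1.32) and Rassf1 (1.19) passed.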

How the data were processed

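Bead signals of 8 ileum arrays were analysed. Intensity values were exported by the authors from GenomeStudio 1.9.0 without normalisation, per the file headers. Detection, deposited as a fraction, is 1 minus the detection p against control beads, and bead counts and bead errors were deposited beside it. The authors' deposited table of log2 values (5045 probes, all 11 arrays) served as an alternative. Its centring is not stated in any source used (column medians 0.01 to 0.19 on the 8 arrays), and its differences between batches 2 and 3 had rank correlations of only 0.217 to 0.51 with those of log2 signal, against 0.873 to 0.973 within batch 3. The submitters' processing notes name GenomeStudio and limma with no role.

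Signals were corrected with normexp from detection p (offset 16), quantile normalised and log2 transformed with limma 3.58.1 in R 4.3.3. Probes with detection p under 0.05 on at least 3 of 8 arrays were kept. Strains were compared by limma with batch as a random block (statmod 1.5.0, consensus correlation 0.55), two-sided, with Benjamini-Hochberg adjustment over 13775 probes and a threshold of 0.05. A fitted difference weighs the batches and is not the difference of group means. The fit was tested on simulated data. Depth does not apply to arrays, whose number limits the precision. Where 1 BALBc array remains, it is assumed to vary like the others.

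Members and lists were chosen with earlier results of these data known. Named were all members, list genes that passed and the 8 next by p, and the 5 probes nearest to Rbp2. Of 18138 array names, 14309 were current symbols of the GRCm38.p6 gene table, 2886 were older names, 73 were ambiguous and 870 were unmatched and kept as given. Alternatives changed background correction, scaling, filter, batch, source of the values and each array in turn.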

Additional observations from a re-analysis of the deposited data

Results flagged for a closer look

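In 3 of 25 groups of 5 SKG values, 1 mouse lay far from the others relative to the range of the group, where chance gives about 1 in 20. For Aldh1a3, SKG replicate 6 had a log2 signal of 6.51, with the next SKG mouse at 5.20. For Nr1h3 the same mouse had 10.35, with the next at 9.80. For Sgpl1, one of the genes patterned like Rbp2, SKG replicate 7 had 10.44, with the next at 10.13. SKG replicate 6 is the array that stood apart from the other SKG arrays over all probes.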

How the results depend on the processing

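No paired analysis was possible because the SKG arrays (replicates 4 to 8) and the BALBc arrays (replicates 1 to 3) are from different mice, which no label matches to each other. Only 3 BALBc mice, 1 of them in the batch of the SKG mice, limit every value. Rbp2 was higher in SKG under all 17 alternatives (0.92 to 3.26) and passed with no batch term (2.48) and without BALBc replicate 3 (3.26), with a range of 1.33 to 3.26 when each array was left out in turn. Those alternatives include the authors' deposited table, whose batches are not comparable. Relative to enterocyte markers the Rbp2 difference was 0.42 within batch 3 and 2.14 to 3.97 with arrays left out. The other member probes gave 1 call without a filter on dim probes and 1 with no batch term, both Rxra, and 0 to 4 with arrays left out: 2 without SKG replicate 6 and 4 without BALBc replicate 3, which leaves strain and batch together. The pathway list gave 0 calls without background correction, with cyclic loess, without a filter and within batch 3, 2 with 75th percentile scaling, 2 with batch as a fixed block, 4 with no batch term, and 0 to 19 with arrays left out. Over all probes there were 79 calls, 147 with 75th percentile scaling, 124 without a filter, 701 with no batch term, 32 within batch 3 and 26 to 5141 with arrays left out (754 without SKG replicate 6). Calls were 55.7% higher in SKG, 69.4% under 75th percentile scaling, 38.2% under cyclic loess and 13.3% in the authors' deposited table, and 75th percentile scaling moved the median difference of all probes to 0.17. Aldh1a1 turned to −0.068 without a filter and to −0.77 with no batch term, and ran from −1.79 to 0.84 with arrays left out. The brighter Aldh1a2 probe turned to −0.16 with batch as a fixed block and within batch 3 and to −0.031 in the authors' deposited table, and ran from −0.051 to 0.71 with arrays left out. The causes were not tested.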

Other observations

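Isx, a transcription factor known in mice to hold down Bco1 in the intestine, was singled out after its values were seen. Its log2 signals ran from 5.58 to 7.37 in SKG and from 6.04 to 10.75 in BALBc, and the BALBc mouse of batch 3 was lower than those of batch 2 by −4.64 (fitted SKG minus BALBc −0.70, limma adjusted p = 0.763).

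Among markers of other tissues, Cela1, an elastase best known from the exocrine pancreas, was higher in SKG at 7.21 ± 0.17 (SD, n = 5), against 5.62 ± 0.15 in BALBc (SD, n = 3) (difference 1.49, limma adjusted p = 0.0199). Of the 10 pancreatic acinar markers 8 were not above background on enough arrays to be tested.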
